A study of Mus musculus with 20 samples.

Results

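The nucleolar ribosome biogenesis factors described here are 55 genes that were listed by name for rRNA synthesis, rRNA processing and the assembly of the ribosomal subunits. Of these, 54 are among the 11075 genes of the count table, and Ddx51 was not analysed here. All 54 had a mean normalized read count of at least 5 and were among the 9726 genes tested. They were sorted by the step they serve into 3 genes of RNA polymerase I (Pol I) transcription, 5 scaffold and shared factors of the nucleolus, 3 proteins of box C/D and 3 of box H/ACA small nucleolar ribonucleoproteins (snoRNPs), 18 factors of the small subunit (SSU) processome, 5 late maturation factors of the small subunit and 17 assembly factors of the large subunit.

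Ribosomes are made in the nucleolus, where Pol I transcribes a long precursor rRNA that snoRNPs modify and that the SSU processome and the large subunit factors fold, cut and pack with ribosomal proteins. The precursors then move to the cytoplasm, where the last factors leave them. Growing fibroblasts spend much of their energy on this pathway, and the mRNAs of its factors are known to respond to growth signals and to the transcription factor MYC.

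The cells were NIH3T3, a fibroblast line from mouse embryos, grown in medium with 18 mM sodium bicarbonate and 10% serum and treated on day 4 of plating. The groups were 5% CO2 at 0 h, 1% CO2 for 2 h and for 4 h, and 18 mM NaOH under 5% CO2 for 2 h and for 4 h, with 4 libraries in each, which the study calls biological replicates without saying whether they were separate cultures. The p-values therefore cover only the variation among these libraries, which may be technical. NaOH served the study as a control for the rise in medium pH that comes with low CO2. Both treatments are set against the same 0 h libraries, and untreated cells of 2 h or 4 h were not analysed here, so that the time since 0 h and the treatment cannot be told apart in comparisons against 0 h.

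RNA was measured by bulk MARS-seq, which counts the 3′ ends of transcripts by unique molecular identifiers. Total counts were 1325293 to 5640523 per library, and the common biological coefficient of variation was 0.101. Replicate 3 of 1% CO2 at 2 h stood apart, with a chi-square per degree of freedom of 9.96 to 10.6 against the other 3 libraries of its group, where those pairs were at 2.37 to 3.50, and so, less far, did replicate 2 of 1% CO2 at 4 h, with 5.38 to 6.32 against 2.08 to 3.2. Counts of the 54 genes that were higher or lower in a comparison are given with and without these libraries. Counts by step, by size of change, of subsets and of other lists are given only with them. All 10 fibroblast markers were abundant, from a mean normalized read count of 166 for Pdgfra to 36480 for Col1a1, while 1 of 4 epithelial markers (Cdh1, at 0 to 8.91), 2 of 3 immune markers (Cd68, at 0.927 to 9.16, and Lyz2, at 88.9 to 196) and 0 of 3 endothelial markers were in the table. A normalized read count is a share of the RNA of a library put on a common scale, and in bulk samples a gene's lower share, fewer cells of a type and less RNA per cell cannot be told apart. At the 3′ end, 13 of the 54 genes overlap a gene on the opposite strand and 1 overlaps a gene on the same strand, and the sources used here do not say whether the counting used the strand.

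In cells exposed to low CO2, most of the listed ribosome biogenesis factors rose. The list was chosen with earlier results of these data known, so its counts are not those of an unselected set. At 2 h of 1% CO2, 42 of 54 had a higher level than at 0 h and 0 a lower one, at an adjusted p of at most 0.05 in edgeR's quasi-likelihood test, compared with 16% of all genes tested that were higher and 12.4% that were lower. At 4 h, 47 were higher and 0 lower, compared with 20.3% and 18.9% of all genes. Without the library that stood apart at each time, 41 were higher at 2 h and 46 at 4 h. Below, rose and fell are written of genes that passed this test, and log2 fold changes (log2FC) of single genes are given ± SE. The median log2FC of the 54 was 0.61 at 2 h and 0.95 at 4 h, while that of all genes was -0.01 at both times. A log2FC of at least 1 together with the adjusted p was reached by 10 genes at 2 h (3.16% of all genes) and by 23 at 4 h (4.06%).

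With NaOH the factors rose as well. At 2 h, 44 of 54 were higher and 0 lower, compared with 23% and 20.4% of all genes, and at 4 h 51 were higher and 0 lower, compared with 28.2% and 26.9%. The median log2FC was 0.62 at 2 h and 1.10 at 4 h. A log2FC of at least 1 was reached by 15 genes at 2 h (6.68% of all genes) and by 33 at 4 h (7.6%). Ddx10 fell at 2 h of NaOH, as 1 gene in place of 0, without replicate 3 of 0 h (log2FC -0.56, adjusted p = 0.0394) or with scaling by library size alone (-0.62, adjusted p = 0.0237). The comparisons of both treatments share the 4 libraries of 0 h, so their counts are not independent of each other. Among the 40 genes without another gene at the 3′ end, a split chosen after seeing the data, 30 and 34 were higher at 2 h and 4 h of 1% CO2 and 31 and 37 at 2 h and 4 h of NaOH. The shares of all genes were 16% and 20.3%, and 23% and 28.2%.

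Added together, the 54 genes took 0.214% ± 0.00394 of the total count at 0 h (mean ± SD, n = 4 in each group), 0.318% ± 0.00862 at 2 h and 0.382% ± 0.00468 at 4 h of 1% CO2, and 0.334% ± 0.00799 at 2 h and 0.442% ± 0.00576 at 4 h of NaOH. By library, this share was 0.210% to 0.218% at 0 h, 0.307% to 0.328% and 0.375% to 0.386% at 2 h and 4 h of 1% CO2, and 0.324% to 0.343% and 0.437% to 0.450% at 2 h and 4 h of NaOH. The treated libraries lay above every 0 h library, the 2 h libraries of both treatments overlapped, and the 4 h libraries of NaOH lay above those of 1% CO2. Cytosolic ribosomal protein genes, which encode the proteins that these factors pack onto rRNA, took 15.4% to 18.4% of the total count, and the ranges of the treated groups overlapped that of 0 h.

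**Figure D1:**
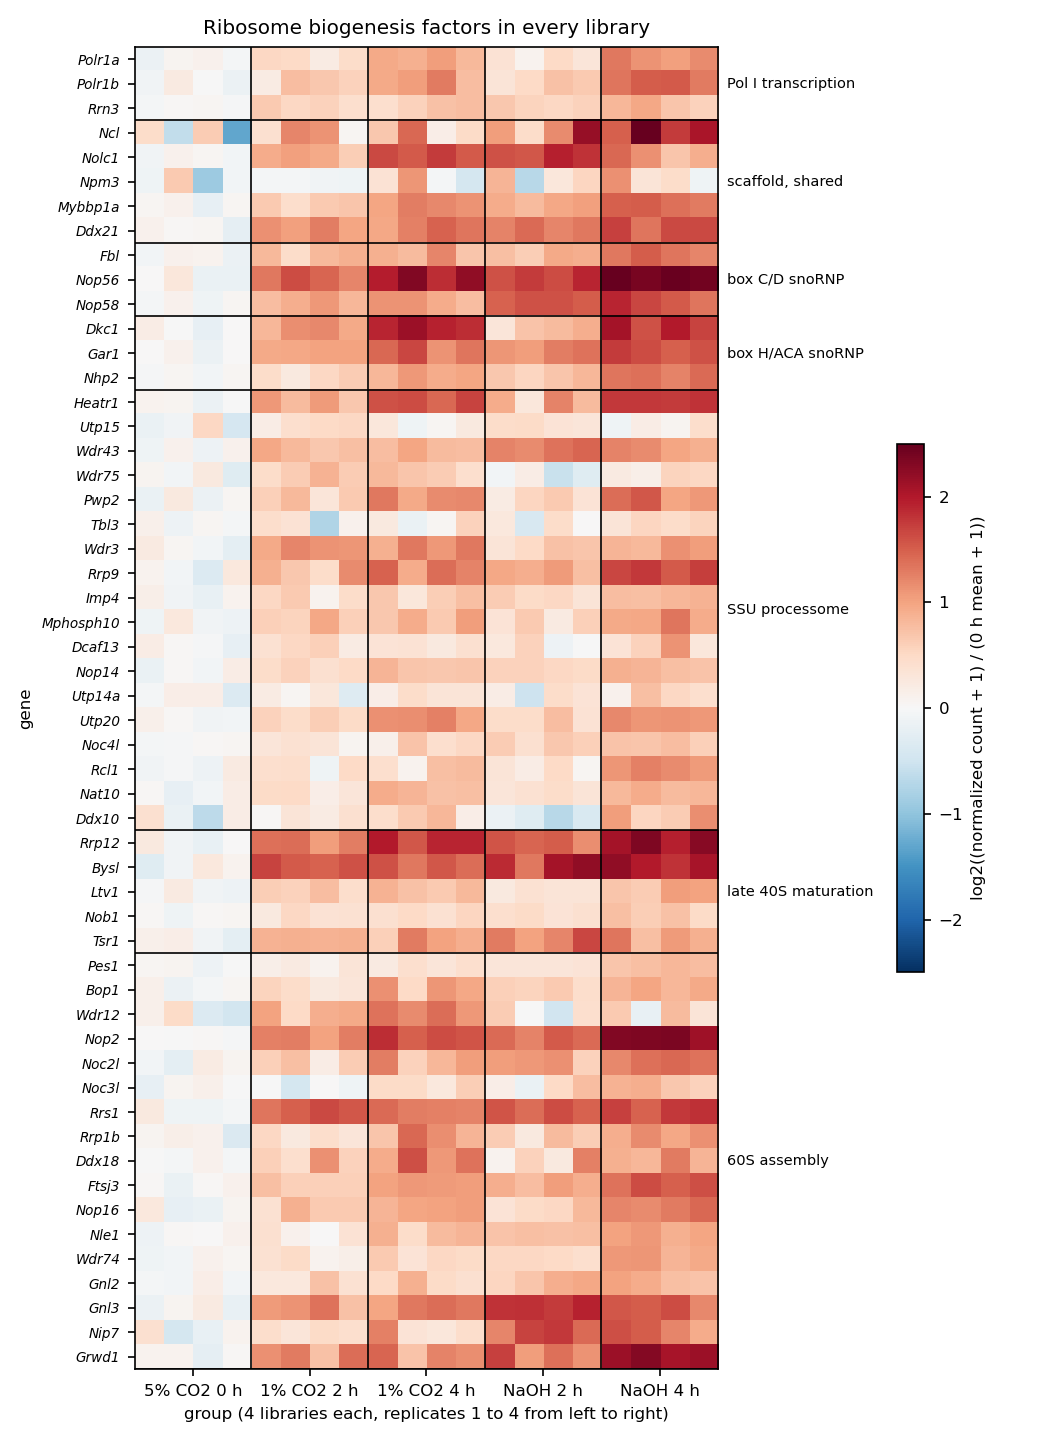
Normalized read count of the 54 genes (rows, grouped by step) in each of the 20 libraries (columns, 4 per group), as the log2 of the count plus 1 over the mean at 0 h plus 1, from blue (lower) to red (higher). The treated columns are mostly red, Nop56 is dark in all 8 libraries of 4 h, and Utp15, which did not pass in any comparison against 0 h, stays pale.

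The ribosomal proteins themselves, read from the same libraries, showed smaller changes. Of 81 ribosomal protein genes tested, 2 rose and 1 fell at 2 h of 1% CO2, while 17 rose and 2 fell at 4 h, with a median log2FC of -0.02 and 0.06, where 16% and 20.3% of all genes rose. With NaOH, 25 rose and 0 fell at 2 h, while 25 rose and 1 fell at 4 h, with a median of 0.17 and 0.22, where 23% and 28.2% of all genes rose. A second list of 90 further ribosome biogenesis genes, of which 82 were tested, lay between these lists, with 49 genes that rose and 1 that fell at 2 h of 1% CO2, and 51 and 2 at 4 h. With NaOH 50 rose and 3 fell at 2 h, and 59 rose and 3 fell at 4 h. In that list Cd3eap, a Pol I subunit, had a log2FC of 1.41 ± 0.094 at 4 h of 1% CO2 and 2.24 ± 0.091 at 4 h of NaOH, and Ppan, a large subunit factor, had 1.19 ± 0.093 and 1.63 ± 0.092. In the opposite direction, Gltscr2, a nucleolar factor of the large subunit, fell by 0.90 and by 0.50 on the log2 scale at 4 h of 1% CO2 and of NaOH. Polr1c, a subunit that Pol I shares with Pol III, fell by 0.29 at 4 h of 1% CO2, and Znrd1, a small Pol I subunit, fell by 0.23 at 4 h of NaOH.

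**Figure D2:**
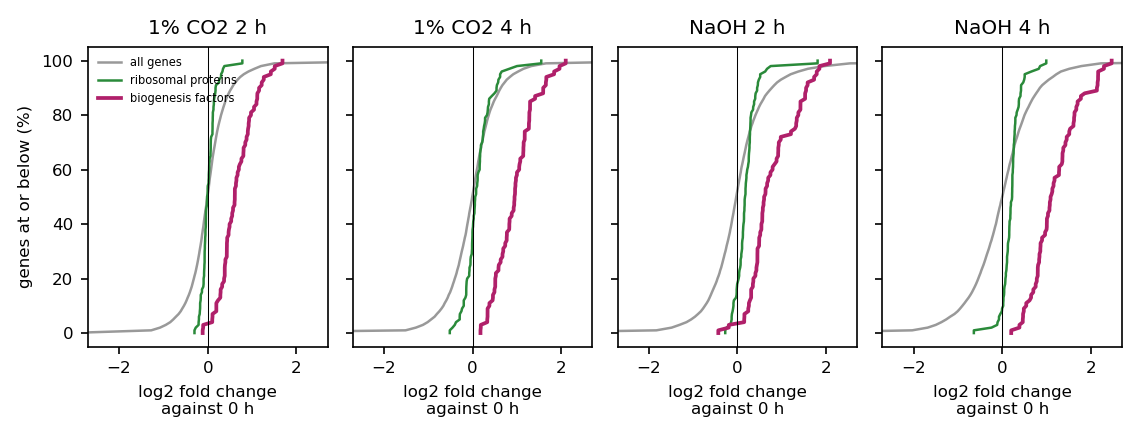
Cumulative share of genes (vertical axis, percent) at or below each log2 fold change against 0 h (horizontal axis) for the 54 biogenesis factors, the 81 ribosomal protein genes and all 9726 genes tested, 1 panel per treated group. The curve of the factors lies to the right of both others over most of each panel, with a median of 0.61, 0.95, 0.62 and 1.10 at 2 h and 4 h of 1% CO2 and 2 h and 4 h of NaOH, while the ribosomal proteins have a median of -0.02, 0.06, 0.17 and 0.22.

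Since most of the 54 genes rose in each treated group, their promoters were searched for motifs. RefSeq promoters (GRCm38.p6, 250 bases before to 50 bases after the start site) were at hand for 47 of the 54. The E-box CACGTG, a palindrome that MYC with MAX and other factors can bind, was in 11 of 47 promoters (23.4%), compared with 12.1% of the promoters of all genes in the count table and 8.1% of all promoters of this length. The ETS core CCGGAAG, read on both strands, was in 17 of 47 (36.2%), compared with 21.2% and 9.9%. Another 2 motifs were searched: the YY1 motif AAGATGGC, on both strands, was in 3 of 47 promoters (6.4%), compared with 5.7% and 3.2%, and the palindromic NRF1 motif in 0 of 47, compared with 2.5% and 1.1%. Ribosomal protein genes had the E-box in 9.7% and the ETS core in 40.3% of their promoters, and the list of further biogenesis genes had them in 17.1% and 51.4%. E-box and ETS core matches do not overlap each other in the stretches shown. A match is a description of the sequence and not of binding, and 8 of the 12 E-box matches start at or after the start site and are not shown. The 100 bases before the RefSeq start site are shown for a gene of each step, with E-box and ETS core matches in capitals and all else in lower case. No rule was set for the choice of these genes, so how many of them hold a match says nothing of their steps. Of the 3 Pol I promoters, 1 held an E-box and 1 an ETS core, both in Rrn3. Bysl, with the largest log2FC of the 54 at 2 h of both treatments, held neither motif in its promoter.
Rrn3, Pol I transcription, chr16:13780599-13780698, plus strand: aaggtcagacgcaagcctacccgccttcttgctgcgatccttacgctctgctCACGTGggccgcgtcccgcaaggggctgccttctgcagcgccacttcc
Nolc1, scaffold, chr19:46075747-46075846, plus strand: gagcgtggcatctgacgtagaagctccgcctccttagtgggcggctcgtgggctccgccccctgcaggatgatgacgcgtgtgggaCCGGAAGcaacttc
Nop56, box C/D snoRNP, chr2:130274312-130274411, plus strand: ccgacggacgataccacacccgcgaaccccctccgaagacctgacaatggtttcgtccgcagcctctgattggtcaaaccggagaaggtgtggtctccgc
Gar1, box H/ACA snoRNP, chr3:129831397-129831496, minus strand: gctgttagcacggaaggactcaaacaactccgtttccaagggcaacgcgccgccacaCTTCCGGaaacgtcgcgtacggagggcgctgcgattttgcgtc
Heatr1, SSU processome, chr13:12395275-12395374, plus strand: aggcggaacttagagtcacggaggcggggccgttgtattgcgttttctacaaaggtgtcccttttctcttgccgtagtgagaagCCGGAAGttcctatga
Ltv1, late small subunit, chr10:13193138-13193237, minus strand: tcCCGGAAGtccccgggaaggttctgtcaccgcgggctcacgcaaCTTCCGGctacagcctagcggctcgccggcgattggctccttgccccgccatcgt
Nop2, large subunit, chr6:125131783-125131882, plus strand: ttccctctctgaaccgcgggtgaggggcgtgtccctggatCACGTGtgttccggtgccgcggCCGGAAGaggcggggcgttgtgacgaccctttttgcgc
Nop2 holds an E-box whose first base lies 60 bases before the start site and an ETS core 38 bases before it, Rrn3 an E-box at 48 bases, and Nolc1, Gar1 and Heatr1 an ETS core at 14, 43 and 16 bases. Ltv1 holds 2 ETS cores, at 98 and 55 bases. Rrn3 also has an ETS core that begins at -5 from the start site, runs past the end of the stretch shown and is therefore left in lower case there. Outside the stretches, Rrn3 has an E-box at -215 and an ETS core at 18, and Ltv1 an E-box at 28. GENCODE places the starts of Heatr1 and Ltv1 further upstream than RefSeq does, so that the stretch of Heatr1 lies inside its GENCODE gene, as does part of that of Ltv1, whose gene ends at 13193168 on the minus strand. Nop56, the gene with the largest rise of the 54 at 4 h of both treatments, holds neither motif in this stretch.

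The mRNAs of all 3 listed genes of the first step, transcription by Pol I, rose at each time of both treatments. Pol I transcription itself was not measured. Pol I genes of the second list differed: Cd3eap rose at 4 h of both treatments, while Polr1c fell at 4 h of 1% CO2 and Znrd1 at 4 h of NaOH. Taf1b, a Pol I initiation factor in that list, had a mean of 41.1 normalized reads at 0 h and 19.4 at 2 h of NaOH. Polr1c had a higher mean at 2 h of NaOH than at 0 h (665.4 against 505.5). Further Pol I genes of that list had higher means at 4 h of 1% CO2 and of NaOH than at 0 h. Among these were Polr1d (683.9 at 0 h, 811 and 1116), Taf1c (76.7, 118.8 and 128.5) and Taf1d (28.4, 52.0 and 57.4). Polr1a encodes the largest subunit of Pol I (chromosome 6, 71909053 to 71984935, GRCm38). The normalized read counts of Polr1a were 148, 171, 175 and 158 in replicates 1 to 4 at 0 h, 232, 230.0, 188 and 226 at 2 h and 316, 304, 337 and 288 at 4 h of 1% CO2. With NaOH they were 209.9, 174, 231 and 202 at 2 h and 408, 357, 334 and 371 at 4 h. The 4 h libraries of both treatments lay above all others, and every treated group was above 0 h except that 1 NaOH library of 2 h lay within the 0 h range. Its log2FC was 0.43 ± 0.10 and 0.94 ± 0.10 at 2 h and 4 h of 1% CO2, and 0.35 ± 0.10 and 1.18 ± 0.10 with NaOH. When library size alone was used for scaling, the rise of Polr1a at 2 h of NaOH did not pass (log2FC 0.16, adjusted p = 0.188), nor did that of Polr1b (0.38, adjusted p = 0.0602), and the median of all genes was then -0.21.

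Polr1b, the second largest subunit (chromosome 2, 129100995 to 129126594), was a low count gene. At 0 h its 4 libraries had 30.6, 38.2, 32.3 and 29.6 normalized reads, those of 1% CO2 had 37.9, 56.7, 52.9 and 49.4 at 2 h and 63.95, 68.6, 81.8 and 56.9 at 4 h. The NaOH libraries had 40.9, 46.8, 54.8 and 52.1 at 2 h and 84.7, 95.04, 96.1 and 82.3 at 4 h. Its 4 h libraries lay above the 0 h range in both treatments and were highest with NaOH. Its log2FC at 4 h was 1.06 ± 0.16 with 1% CO2 and 1.45 ± 0.15 with NaOH. Rrn3, which brings Pol I to the rDNA promoter (chromosome 16, 13780708 to 13814839), behaved differently in time. In 1% CO2, Rrn3 was at 444, 402, 420.1 and 377 normalized reads at 2 h and 377, 419.8, 469 and 479 at 4 h, from 271, 286, 291 and 274 at 0 h. After NaOH treatment, Rrn3 was at 448, 416, 403 and 418 at 2 h and 497, 553, 456 and 418 at 4 h. All treated libraries lay above those of 0 h, and the 2 h and 4 h libraries overlapped. The log2FC of Rrn3 was 0.55 ± 0.091 and 0.63 ± 0.092 in 1% CO2 and 0.59 ± 0.092 and 0.78 ± 0.090 with NaOH. Between 2 h and 4 h Polr1a rose by 0.51 ± 0.10 in 1% CO2 and 0.83 ± 0.10 with NaOH, while the log2FC of Rrn3 was 0.08 (adjusted p = 0.595) and 0.19 (adjusted p = 0.11). The rise of Polr1b between the times in 1% CO2, 0.45 ± 0.15 with an adjusted p of 0.0369, was lost in 5 of the 8 fits that left out 1 library, namely replicates 1 and 4 of 2 h and replicates 1, 2 and 3 of 4 h, with an adjusted p of up to 0.156.

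Of the scaffold and shared factors, Mybbp1a, Ddx21 and Nolc1 rose in every comparison against 0 h. Mybbp1a, a nucleolar protein that binds MYB and takes part in early rRNA processing (chromosome 11, 72441355 to 72451768), was among the abundant genes. Its libraries held 354, 369, 298 and 357 normalized reads at 0 h, 544, 468, 541 and 559.9 at 2 h of 1% CO2 and 688, 839.6, 790.2 and 752 at 4 h. In the NaOH groups the values were 654, 600.0, 669.9 and 704 at 2 h and 977, 987, 899.9 and 846 at 4 h. The 5 groups did not overlap, apart from 4 h of 1% CO2 and 2 h of NaOH, and by their means were ordered from 0 h over 1% CO2 2 h, NaOH 2 h and 1% CO2 4 h to NaOH 4 h. Its log2FC was 1.15 ± 0.086 after 4 h of 1% CO2 and 1.43 ± 0.086 at 4 h of NaOH. Ddx21, an RNA helicase of Pol I transcription and rRNA processing (chromosome 10, 62580251 to 62602281), had most of its rise by 2 h. The normalized read counts of Ddx21 were 88.05, 83.7, 84.7 and 69.6 in replicates 1 to 4 at 0 h, 182, 167, 198 and 163 at 2 h and 159.9, 196, 228 and 209 at 4 h of 1% CO2. With NaOH they were 194, 218, 191 and 205 at 2 h and 269.5, 208, 257 and 258 at 4 h. Every treated library lay above the 0 h range, and the 2 h and 4 h libraries overlapped in both treatments. Its log2FC was 1.12 ± 0.12 and 1.27 ± 0.12 in 1% CO2, and 1.30 ± 0.12 and 1.61 ± 0.11 with NaOH.

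Ncl (nucleolin), one of the most abundant nucleolar proteins, was here at a mean normalized read count of 12.99, the lowest of the 54. It ranged from 1.60 to 8.91 at 0 h, 5.61 to 13.8 and 6.19 to 16.3 at 2 h and 4 h of 1% CO2, and 7.79 to 27.7 and 17.0 to 35.5 at 2 h and 4 h of NaOH. It rose with NaOH, by 1.58 ± 0.42 and 2.13 ± 0.37, and was at 0.92 ± 0.44 (adjusted p = 0.119) and 0.88 ± 0.47 (adjusted p = 0.135) in 1% CO2. Npm3, a relative of nucleophosmin, did not pass in any comparison, with log2FC of -0.10 and 0.38 in 1% CO2 and 0.45 and 0.54 with NaOH and an SE of 0.30 to 0.32.

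All 3 listed genes of the box C/D snoRNP, whose guide RNAs direct 2′-O-methylation of rRNA by fibrillarin (Fbl), rose in each treated group. Nhp2l1, a protein of this particle in the second list, had low counts. Its mean was 10.1 normalized reads at 0 h, 9.08 and 11.6 at 2 h and 4 h of 1% CO2, and 12.8 and 16.5 with NaOH. Nop56 (chromosome 2, 130274430 to 130279313), a core protein of the particle, had the largest log2FC of the 54 at 4 h of both treatments. At 0 h its 4 libraries had 67.99, 82.9, 60.2 and 59.99 normalized reads, those of 1% CO2 had 170.5, 211, 187 and 158 at 2 h and 269, 339.5, 245 and 319 at 4 h. The NaOH libraries had 207, 229, 212 and 258 at 2 h and 406, 354, 380.5 and 366 at 4 h. No treated library overlapped with 0 h, and within each treatment the 4 h libraries lay above the 2 h libraries. The log2FC was 1.42 ± 0.13 and 2.10 ± 0.12 in 1% CO2, a fold of 2.68 and 4.29, and 1.73 ± 0.13 and 2.47 ± 0.12 with NaOH, a fold of 3.31 and 5.53. Nop56 lies beside Idh3b, whose 3′ end overlaps it on the opposite strand.

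Nop58, the partner of Nop56 in the particle (chromosome 1, 59684971 to 59719044), reached its level by 2 h. In 1% CO2, Nop58 was at 449, 489.9, 553 and 467 normalized reads at 2 h and 572, 569, 499 and 450.3 at 4 h, from 252, 280.5, 244 and 270.3 at 0 h. After NaOH treatment, Nop58 was at 734, 789.6, 793 and 754 at 2 h and 977, 839, 758 and 666 at 4 h. The libraries of NaOH lay above those of 1% CO2 at both times, and 2 h and 4 h overlapped within each treatment. Between 2 h and 4 h its log2FC was 0.10 (adjusted p = 0.551) in 1% CO2 and 0.08 (adjusted p = 0.548) with NaOH. Fbl had a log2FC of 0.93 ± 0.12 at 4 h of 1% CO2 and 1.36 ± 0.11 at 4 h of NaOH.

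The 3 listed genes of the box H/ACA snoRNP, which turns uridines of rRNA into pseudouridines, also rose in each treated group. It was the step in which every listed gene rose again between 2 h and 4 h in both treatments. Nop10, a protein of this particle in the second list, had low counts. Its mean was 12.6 normalized reads at 0 h, 12.6 and 21.7 at 2 h and 4 h of 1% CO2, and 15.4 and 13.9 with NaOH. Gar1 (chromosome 3, 129824912 to 129831396) is a core protein of the particle. Its libraries held 177, 189, 158 and 175 normalized reads at 0 h, 336, 342, 351 and 350.1 at 2 h of 1% CO2 and 474, 558, 384 and 442 at 4 h. In the NaOH groups the values were 377, 361, 425 and 447 at 2 h and 589, 542, 496 and 526 at 4 h. Its libraries rose in 2 stages, and no treated library overlapped with 0 h. The log2FC of Gar1 was 1.41 ± 0.10 at 4 h of 1% CO2 and 1.62 ± 0.10 at 4 h of NaOH. Nhp2, a small RNA binding core protein (chromosome 11, 51619735 to 51623714), was the most abundant gene of the particle. The normalized read counts of Nhp2 were 379.5, 405, 369.9 and 402 in replicates 1 to 4 at 0 h, 534, 458, 560.1 and 607 at 2 h and 691, 827, 739 and 771 at 4 h of 1% CO2. With NaOH they were 618, 569, 629.7 and 693 at 2 h and 986, 1012, 915 and 1037 at 4 h. The 4 h libraries of NaOH lay above all others. Its log2FC was 0.96 ± 0.085 and 1.34 ± 0.084 at 4 h of 1% CO2 and NaOH. Dkc1, the pseudouridine synthase, had the largest rise of the 54 between the times in 1% CO2, 0.92 ± 0.13, and rose by 1.19 ± 0.14 with NaOH.

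In the SSU processome, the large particle that forms on the 5′ part of the precursor rRNA, 13 of 18 genes rose by 2 h and 14 by 4 h of 1% CO2, against 11 and 17 with NaOH, and 0 fell. Of all genes, 16% and 20.3% rose at 2 h and 4 h of 1% CO2, and 23% and 28.2% with NaOH. The median log2FC of the processome was the lowest of the 7 steps in each of the 4 comparisons, at 0.48 and 0.71 in 1% CO2 and 0.45 and 0.84 with NaOH. Heatr1, a very large protein that is also required for Pol I transcription (chromosome 13, 12395027 to 12440289), changed most at 4 h. At 0 h its 4 libraries had 109, 106, 91.3 and 101 normalized reads, those of 1% CO2 had 216, 176, 214 and 164 at 2 h and 309.7, 319, 277 and 330.2 at 4 h. The NaOH libraries had 193, 125, 241 and 177 at 2 h and 347, 349, 346 and 359 at 4 h. The 4 h libraries lay above all 2 h libraries in both treatments, and the lowest value of the 2 h NaOH group came from the library with the fewest counts of the series. Its log2FC at 4 h was 1.59 ± 0.12 in 1% CO2 and 1.77 ± 0.12 with NaOH. Wdr43, a processome subunit (chromosome 17, 71615895 to 71659031), rose by 2 h. In 1% CO2, Wdr43 was at 317, 282, 258 and 270.4 normalized reads at 2 h and 274, 319, 277 and 276 at 4 h, from 149.9, 172, 147 and 174 at 0 h. After NaOH treatment, Wdr43 was at 379.8, 366, 413 and 445 at 2 h and 379, 368, 321 and 299.8 at 4 h. All treated libraries lay above 0 h, and the 2 h and 4 h libraries overlapped in both treatments. The log2FC of Wdr43 was 0.81 ± 0.10 and 0.83 ± 0.10 in 1% CO2, and 1.32 ± 0.10 and 1.09 ± 0.10 with NaOH.

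Utp15, a subunit of the part of the processome that binds Pol I transcripts first (chromosome 13, 98246845 to 98263041), had the lowest log2FC of the 54 at 4 h of both treatments. Its libraries held 21.2, 22.3, 34.5 and 17.6 normalized reads at 0 h, 27.4, 32.4, 34.3 and 34.8 at 2 h of 1% CO2 and 29.2, 22.1, 24.8 and 28.4 at 4 h. In the NaOH groups the values were 33.4, 33.8, 30.4 and 29.8 at 2 h and 22.03, 27.5, 25.2 and 32.7 at 4 h. The groups overlapped, except that the libraries of 4 h of 1% CO2 (22.1 to 29.2) lay just below those of 2 h of NaOH (29.8 to 33.8). The log2FC of Utp15 against 0 h was 0.48 ± 0.19 and 0.18 ± 0.21 in 1% CO2, and 0.45 ± 0.20 and 0.20 ± 0.20 with NaOH, with an adjusted p of 0.0584 to 0.527. At 2 h it passed in both treatments when replicate 3 of 0 h was left out (log2FC 0.66 and 0.63, adjusted p = 0.00937 and 0.0129), and at 2 h of 1% CO2 also without replicate 1 of that group (0.56, adjusted p = 0.0403). Tbl3 and Utp14a, processome subunits too, passed at 4 h of NaOH, with a log2FC of 0.47 ± 0.18 and 0.49 ± 0.20. Dcaf13 did not pass at 4 h of 1% CO2 (0.33 ± 0.15) and at 2 h of NaOH (0.15 ± 0.16), and Rcl1 and Ddx10 did not pass at 2 h in either treatment, except Rcl1 at 2 h of 1% CO2 without replicate 3 of that group (0.46, adjusted p = 0.00469). At 4 h of 1% CO2 the rise of Ddx10 (0.51, adjusted p = 0.0362) was lost without replicate 2 or 3 of 0 h or replicate 2 or 3 of 1% CO2, with an adjusted p of up to 0.141. The other 12 genes of the step, among them Pwp2, Wdr3, Rrp9 and Utp20, rose in all 4 comparisons, except Wdr75 at 2 h of NaOH.

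All 5 late maturation factors of the small subunit rose in each treated group. Bysl (chromosome 17, 47599331 to 47611492), which is needed to release the small subunit precursor from the nucleus, had the largest log2FC of the 54 at 2 h of both treatments. The normalized read counts of Bysl were 9.47, 11.2, 14.5 and 12.8 in replicates 1 to 4 at 0 h, 41.04, 36.4, 35.2 and 38.1 at 2 h and 38.4, 31.4, 37.2 and 33.2 at 4 h of 1% CO2. With NaOH they were 46.4, 31.2, 53.6 and 59.6 at 2 h and 59.3, 50.4, 44.6 and 52.8 at 4 h. No treated library overlapped with 0 h, and within each treatment 2 h and 4 h overlapped. Its log2FC was 1.69 ± 0.20 and 1.59 ± 0.21 in 1% CO2, and 2.09 ± 0.20 and 2.15 ± 0.19 with NaOH. Rrp12, an export factor of ribosomal precursors (chromosome 19, 41862851 to 41896173), rose in 2 stages. At 0 h its 4 libraries had 78.6, 62.2, 57.9 and 66.4 normalized reads, those of 1% CO2 had 173, 175, 137 and 162 at 2 h and 265, 195, 251 and 251 at 4 h. The NaOH libraries had 199, 184, 190.0 and 149 at 2 h and 284, 339, 259 and 325 at 4 h. The 4 h libraries lay above the 2 h libraries of the same treatment. Its log2FC was 1.26 ± 0.13 and 1.84 ± 0.13 in 1% CO2, and 1.42 ± 0.13 and 2.16 ± 0.12 with NaOH. Tsr1, Ltv1 and Nob1, the last of which makes the final cut of the small subunit rRNA, had log2FC of 0.97, 0.77 and 0.45 at 4 h of 1% CO2 and of 1.03, 0.86 and 0.65 at 4 h of NaOH.

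Of the 17 large subunit factors, 12 rose by 2 h and 16 by 4 h of 1% CO2, against 15 and 16 with NaOH, and 0 fell. The shares of all genes that rose were 16% and 20.3% in 1% CO2, and 23% and 28.2% with NaOH. The median log2FC of the 17 factors was 0.57 and 0.98 in 1% CO2, and 0.74 and 1.07 with NaOH. Nop2, an rRNA methyltransferase (chromosome 6, 125131909 to 125144753), had the smallest p of the F test over the 5 groups. In 1% CO2, Nop2 was at 363, 368, 303 and 365 normalized reads at 2 h and 543, 427, 466 and 452 at 4 h, from 151, 149, 154 and 148 at 0 h. After NaOH treatment, Nop2 was at 406, 356, 436 and 404 at 2 h and 748, 766, 776 and 659 at 4 h. The 4 libraries of 0 h lay close together, every treated library was higher, and the 4 h libraries of NaOH lay above all others. The log2FC was 1.22 ± 0.094 and 1.65 ± 0.094 in 1% CO2, and 1.42 ± 0.10 and 2.29 ± 0.093 with NaOH. Ftsj3, another rRNA methyltransferase (chromosome 11, 106249142 to 106256079), followed the same order. Its libraries held 313, 272, 312 and 333 normalized reads at 0 h, 517, 462, 467 and 466 at 2 h of 1% CO2 and 622, 651, 644 and 632 at 4 h. In the NaOH groups the values were 576, 527, 639 and 579 at 2 h and 789, 954, 867 and 947 at 4 h. The groups did not overlap except for 4 h of 1% CO2 and 2 h of NaOH. Its log2FC at 4 h was 1.05 ± 0.084 and 1.53 ± 0.083.

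Rrs1, which brings the 5S particle into the large subunit precursor, was high by 2 h, with log2FC of 1.51 ± 0.10 and 1.30 ± 0.10 in 1% CO2 and 1.53 ± 0.10 and 1.70 ± 0.10 with NaOH. Pes1, Bop1 and Wdr12 form the PeBoW complex, and their values differed. At 4 h of 1% CO2 the log2FC was 0.34 ± 0.091 for Pes1, 0.95 ± 0.10 for Bop1 and 1.29 ± 0.23 for Wdr12, and at 4 h of NaOH it was 0.75 ± 0.087, 0.90 ± 0.10 and 0.46 ± 0.25, of which the last did not pass (adjusted p = 0.113). The genes that did not pass at 2 h of 1% CO2 were Pes1, Noc3l, Rrp1b, Nle1 and Nip7, of which Nip7 did not pass at 4 h (0.69 ± 0.29, adjusted p = 0.0581). The genes that did not pass at 2 h of NaOH were Wdr12 and Noc3l.

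**Figure D3:**
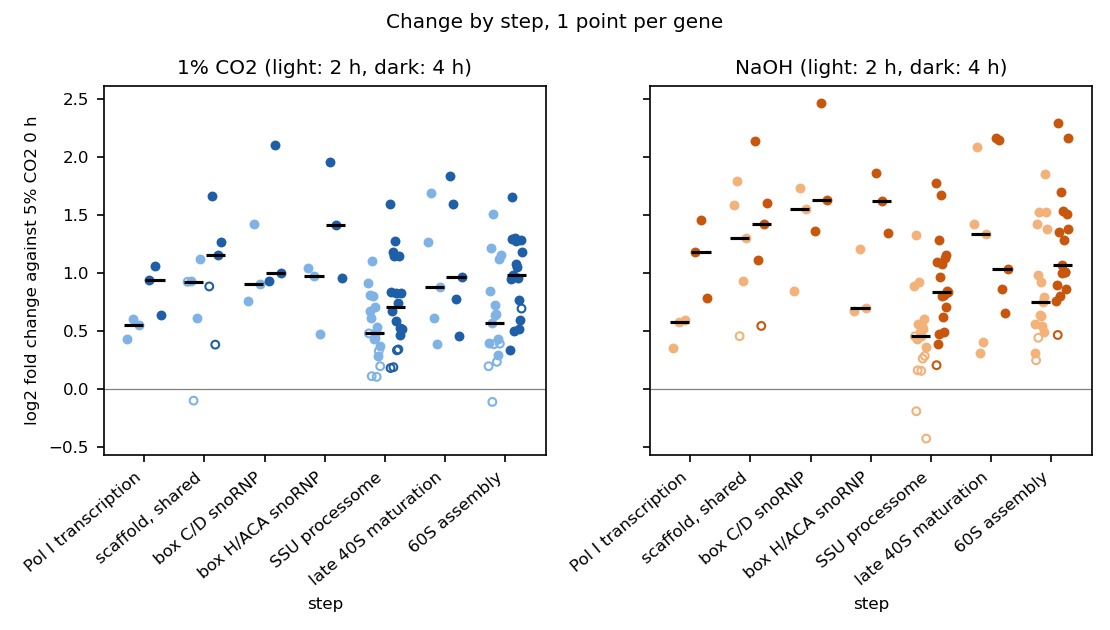
Log2 fold change against 5% CO2 at 0 h (vertical axis) of each gene by step, at 2 h (light) and 4 h (dark) of 1% CO2 (left) and NaOH (right). Filled points passed at an adjusted p of 0.05, open points did not, and bars are medians, which are lowest for the SSU processome at 0.48 and 0.71 on the left and 0.45 and 0.84 on the right.

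The change between 2 h and 4 h was tested gene by gene, and a difference between steps was not tested. Between 2 h and 4 h of 1% CO2, 21 of the 54 genes rose and 0 fell, compared with 7.74% of all genes that rose and 7.55% that fell, and the median log2FC was 0.27. Without replicate 3 of 2 h 21 rose, and without replicate 2 of 4 h 19 rose. These were 2 of 3 Pol I genes, 2 of 5 scaffold factors, 1 of 3 box C/D, 3 of 3 box H/ACA, 5 of 18 processome, 1 of 5 late small subunit and 7 of 17 large subunit genes. With NaOH, 34 rose, compared with 16% of all genes, and 2 fell, compared with 16.5%, and the median was 0.42. The genes that rose with NaOH were 2 of 3, 2 of 5, 2 of 3, 3 of 3, 13 of 18, 3 of 5 and 9 of 17 in the same order of steps. Rrn3, Nop58, Bysl and Rrs1, which were up at 2 h, did not pass between 2 h and 4 h in either treatment. The 2 genes that fell between 2 h and 4 h of NaOH were Nolc1 and Gnl3, and this count was 4 when replicate 2 of 2 h or replicate 1 of 4 h was left out and 1 without replicate 4 of either time.

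A direct comparison of 1% CO2 with NaOH at equal times shows whether the rise differed between these treatments. The study describes a move into a special incubator for the 1% CO2 cells and not for the NaOH cells. The CO2 level and this move therefore cannot be told apart here. At 2 h, 4 of the 54 genes were higher in 1% CO2 than with NaOH, compared with 14.9% of all genes, and 15 were lower, compared with 17.1%. At 4 h, 2 were higher, compared with 16.3%, and 23 were lower, compared with 19.2%. Without the 1% CO2 library that stood apart, 3 lay above and 13 below NaOH at 2 h, and 2 above and 21 below at 4 h. The median log2FC of 1% CO2 against NaOH was -0.14 at 2 h and -0.25 at 4 h, and 9 of 54 values lay above 0 at 4 h. With scaling by library size alone, at 2 h 7 genes lay above NaOH and 6 below it, with a median of -0.01 where that of all genes was 0.12, and at 4 h 2 lay above and 15 below, with a median of -0.17 where that of all genes was 0.07. The count of higher genes at 2 h was 2 without replicate 3 of NaOH, and no other left-out library moved a count of this comparison by more than 1.5 times.

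**Figure D4:**
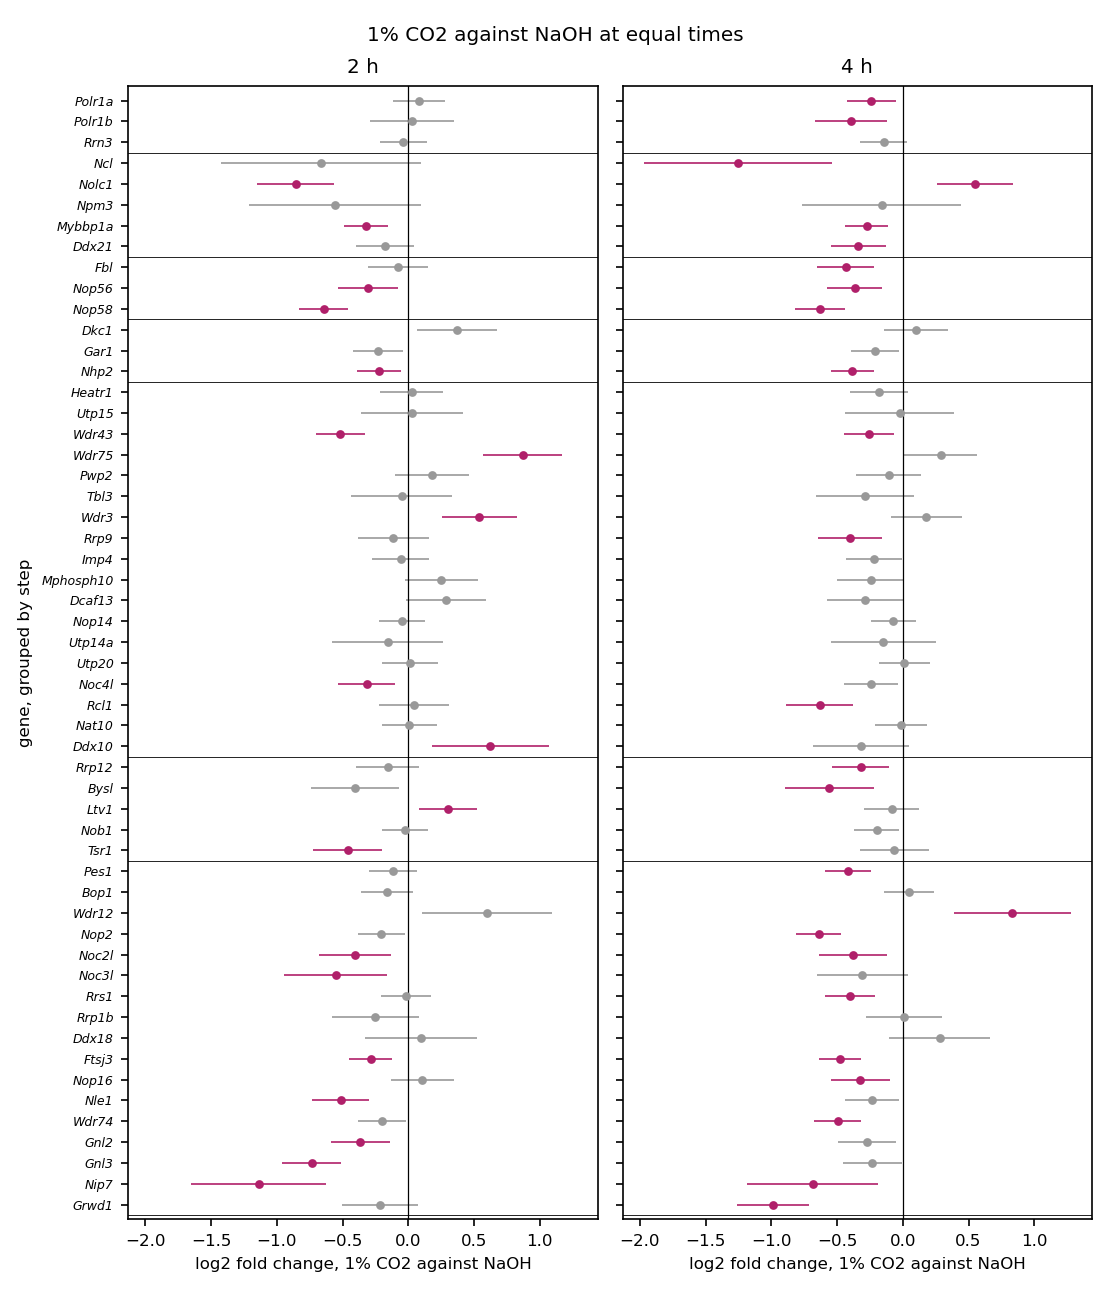
Log2 fold change of 1% CO2 against NaOH at 2 h and 4 h for each of the 54 genes, with bars of 1.96 SE, in colour where the adjusted p was at most 0.05. At 2 h 4 coloured genes lie to the right of 0 and 15 to the left, and at 4 h 2 lie to the right and 23 to the left.

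By step, the genes lower in 1% CO2 at 4 h were 2 of 3 Pol I, 3 of 5 scaffold, 3 of 3 box C/D, 1 of 3 box H/ACA, 3 of 18 processome, 2 of 5 late small subunit and 9 of 17 large subunit genes. Of all genes, 19.2% were lower in this comparison. The calls of the Pol I genes were near the threshold: Polr1a (-0.24, adjusted p = 0.0454) was lost in 6 of 8 fits that left out 1 library of either group, all but replicate 3 of each, with an adjusted p of up to 0.175, and Polr1b (-0.39, adjusted p = 0.0265) without replicate 1 or 4 of 1% CO2 or replicate 2 or 3 of NaOH, with up to 0.082. Nop58 was lower in 1% CO2 at both times, with a log2FC of -0.64 ± 0.10 at 2 h (adjusted p = 2.32e-06) and -0.63 ± 0.10 at 4 h (adjusted p = 2.82e-06), and its libraries did not overlap at 2 h, at 449 to 553 in 1% CO2 and 734 to 793 with NaOH. Nop2 was lower at 4 h, by -0.64 ± 0.087 (adjusted p = 3.16e-07), and its 95% interval at 2 h ran from -0.38 to -0.03 (adjusted p = 0.0805). Ncl at 4 h and Nip7 at 2 h had a log2FC under -1, at -1.25 ± 0.36 and -1.14 ± 0.26, and both had a mean under 20, which the stricter filter leaves out. Heatr1 did not pass at either time, with 95% intervals of -0.21 to 0.27 and -0.40 to 0.04, and neither did Rrn3, with -0.22 to 0.14 and -0.32 to 0.03, nor Utp20, with -0.20 to 0.23 and -0.18 to 0.20.

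Wdr75, a processome subunit (chromosome 1, 45795166 to 45823619), went the other way. The normalized read counts of Wdr75 were 71.3, 65.3, 81.3 and 55.2 in replicates 1 to 4 at 0 h, 93.7, 107, 125 and 107 at 2 h and 121, 110.5, 106 and 91.7 at 4 h of 1% CO2. With NaOH they were 65.00, 77.9, 46.3 and 55.3 at 2 h and 80.5, 75.6, 101 and 98.2 at 4 h. The 2 h libraries of 1% CO2 lay above those of NaOH and of 0 h, and those of NaOH overlapped with 0 h. The log2FC of 1% CO2 against NaOH at 2 h was 0.87 ± 0.15 (adjusted p = 2.92e-05), and at 4 h it was 0.29 ± 0.14 (adjusted p = 0.11). The other genes that were higher in 1% CO2 at 2 h were Wdr3, 0.54 ± 0.14, Ddx10, 0.62 ± 0.23, and Ltv1, 0.30 ± 0.11. That of Ddx10 did not pass without replicate 2 or 4 of 1% CO2 or replicate 3 or 4 of NaOH, with an adjusted p of up to 0.12. The call of Wdr75 at 4 h of NaOH against 0 h (0.39, adjusted p = 0.0197) was lost without replicate 4 of 0 h or replicate 3 or 4 of NaOH, with an adjusted p of up to 0.0966, and with scaling by library size alone (adjusted p = 0.257). At 4 h the genes higher in 1% CO2 were Nolc1 and Wdr12, at 0.55 ± 0.15 and 0.83 ± 0.23. Grwd1, a histone binding protein of large subunit precursors (chromosome 7, 45825223 to 45830944), had the next to largest difference in size at 4 h after Ncl. At 0 h its 4 libraries had 55.7, 55.8, 44.6 and 53.6 normalized reads, those of 1% CO2 had 117, 131, 87.2 and 139 at 2 h and 146, 86.05, 125 and 118 at 4 h. The NaOH libraries had 174, 109, 138 and 116 at 2 h and 234, 262, 221 and 234 at 4 h. At 2 h both treatments overlapped, and at 4 h the NaOH libraries lay above all others. The log2FC of 1% CO2 against NaOH was -0.22 ± 0.15 at 2 h (adjusted p = 0.276) and -0.99 ± 0.14 at 4 h (adjusted p = 9.1e-07).

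Whether the course from 2 h to 4 h differed between the treatments was tested as an interaction, which 2 of the 54 genes passed with a more positive log2FC in 1% CO2 than with NaOH, compared with 7.94% of all genes, and 4 with a more positive log2FC with NaOH, compared with 7.11%. These counts were 2 and 6 without replicate 3 of 1% CO2 at 2 h, and 1 and 4 without replicate 2 at 4 h. Nolc1, a phosphoprotein that binds snoRNPs on their way through the nucleolus (chromosome 19, 46075863 to 46085530), was singled out after its values were seen. In 1% CO2, Nolc1 was at 50.5, 54.3, 51.01 and 40.4 normalized reads at 2 h and 84.05, 76.8, 89.2 and 77.4 at 4 h, from 24.5, 27.9, 26.7 and 24.8 at 0 h. After NaOH treatment, Nolc1 was at 80.8, 77.9, 102 and 93.7 at 2 h and 72.03, 58.4, 42.7 and 49.6 at 4 h. It rose from 2 h to 4 h in 1% CO2 without overlap and fell from 2 h to 4 h with NaOH without overlap, and all treated libraries stayed above 0 h. The log2FC between the times was 0.73 ± 0.15 in 1% CO2 and -0.67 ± 0.15 with NaOH, and the interaction was 1.41 ± 0.21 (adjusted p = 1.03e-05), with 1.29 to 1.57 over the fits that left out 1 library.

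Gnl3 (nucleostemin), a GTPase of the nucleolus and large subunit assembly (chromosome 14, 31012433 to 31019152), passed in the same direction. Its libraries held 95.3, 112, 124 and 92.8 normalized reads at 0 h, 222, 233, 273 and 177 at 2 h of 1% CO2 and 210.1, 266, 279.9 and 267 at 4 h. In the NaOH groups the values were 372, 377, 357 and 404 at 2 h and 314, 305, 330.1 and 246 at 4 h. With NaOH the 4 h libraries lay below those of 2 h, and in 1% CO2 the times overlapped. The interaction was 0.50 ± 0.16 (adjusted p = 0.0315). It did not pass in 7 of the fits that left out 1 library (replicates 1 and 4 of 1% CO2 2 h, 2, 3 and 4 of 1% CO2 4 h, 4 of NaOH 2 h and 4 of NaOH 4 h), with an adjusted p of up to 0.0857, and the fall of Gnl3 between 2 h and 4 h of NaOH, -0.34 ± 0.11, did not pass without replicate 4 of either time (adjusted p = 0.0652 and 0.101). Without each of these 7 libraries 1 gene, in place of 2, passed the interaction with a more positive log2FC in 1% CO2. The 4 genes with a more positive log2FC with NaOH were Nop2, -0.44 ± 0.12, Grwd1, -0.77 ± 0.20, Rcl1, -0.67 ± 0.19, and Ddx10, -0.95 ± 0.29, and 7 genes passed in that direction without replicate 1 of 1% CO2 2 h or replicate 2 of NaOH 4 h. The normalized read counts of Rcl1 were 149, 155, 145 and 185 in replicates 1 to 4 at 0 h, 212, 214, 146 and 224 at 2 h and 213, 167, 266 and 273 at 4 h of 1% CO2. With NaOH they were 199.7, 179, 225 and 164 at 2 h and 339.8, 381, 360.1 and 335 at 4 h. The 4 h libraries of NaOH lay above all others, and the 2 h and 4 h libraries of 1% CO2 overlapped. For Rcl1, a processome factor, the log2FC between the times was 0.20 in 1% CO2 (adjusted p = 0.337) and 0.87 ± 0.13 with NaOH. Ddx10, an RNA helicase, was a low count gene. At 0 h its 4 libraries had 42.9, 28.7, 20.1 and 36.8 normalized reads, those of 1% CO2 had 32.6, 40.5, 37.1 and 42.6 at 2 h and 43.9, 51.2, 58.2 and 36.3 at 4 h. The NaOH libraries had 28.8, 25.97, 19.5 and 24.5 at 2 h and 66.9, 46.95, 50.5 and 72.8 at 4 h. With NaOH the 4 h libraries lay above those of 2 h, and in 1% CO2 the times overlapped. Its log2FC between the times was 0.32 (adjusted p = 0.301) and 1.26 ± 0.21, and its interaction did not pass without replicate 3 of NaOH 2 h (adjusted p = 0.0651) or replicate 4 of NaOH 4 h (adjusted p = 0.0618).

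**Figure D5:**
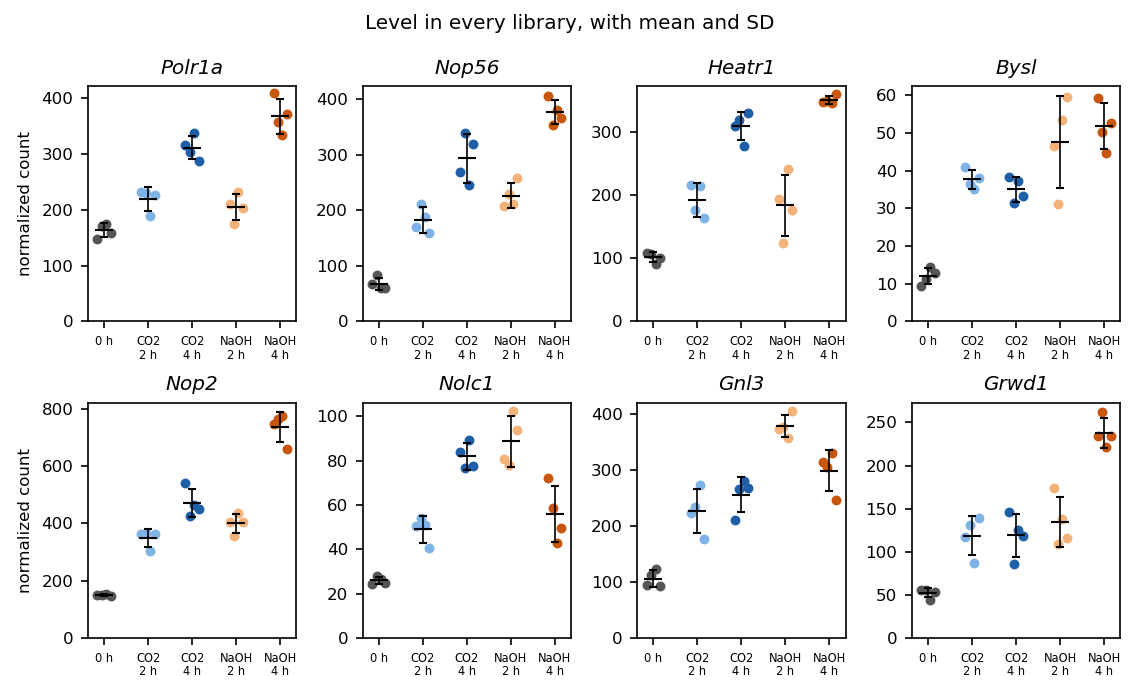
Normalized read count of 8 genes in every library (points), with the mean and SD of the 4 libraries of each group. Polr1a, Nop56, Heatr1 and Nop2 are highest at 4 h of NaOH, Bysl is up at 2 h and level after that, Nolc1 and Gnl3 are lower at 4 h than at 2 h of NaOH, and Grwd1 rises between the times with NaOH and not in 1% CO2 (log2FC 0.79 and 0.02).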

How the data were processed

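Bulk MARS-seq libraries of NIH3T3 cells, 4 in each of 5 groups taken from the sample labels, were analysed. The authors trimmed reads with cutadapt, aligned them to mm10 with STAR (2.4.2a in the submitters' processing notes) and deposited whole-number counts of unique molecules per RefSeq gene, counted by HTSeq on 3′ ends that were extended by 1000 bases on the 5′ side and 100 bases on the 3′ side. The deposited normalized signal is the count divided by the DESeq2 size factor of the library, and was used only to check this. Total counts ranged from 1325293 to 5640523 per library, and the low libraries give wider errors.

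All 20 libraries in 5 groups were fitted with edgeR (4.0.16, R 4.3.3), with TMM scaling and the robust quasi-likelihood F test, on the 9726 genes whose normalized count averaged 5 or more, leaving out 1349. Genes passed at a Benjamini-Hochberg adjusted p of 0.05 over all genes tested. The SE is the log2 fold change over the square root of F, and 95% intervals are 1.96 SE. The script was tested on simulated data. The members and lists were chosen with earlier results of these data known. Values in every library are given for the Pol I genes, for the 2 genes of each other step with the smallest p over the 5 groups, for those of highest and lowest change at 4 h, and for the 3 of smallest adjusted p between treatments at each time; Nolc1, Rcl1 and Ddx10 were added for their interaction. Alternatives were DESeq2 size factors, library size alone, no filter or a minimum of 20, DESeq2 (1.42.0), a replicate block, only the groups compared, and each library left out. Promoter sequences are from RefSeq (GRCm38.p6), and gene positions from GENCODE mouse release M21 (GRCm38).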

Additional observations from a re-analysis of the deposited data

Results flagged for a closer look

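In 5 of 110 combinations of a gene and a group, 1 library lay far from the other 3, where chance gives about 1 in 20. Replicate 3 of 1% CO2 at 2 h, which gave 3 of the 5, also stood apart over all genes (chi-square per degree of freedom of 9.96 to 10.6 against the others of its group, which were at 2.37 to 3.50 among themselves), so these 3 are not independent of each other. Replicate 3 of 1% CO2 at 2 h was low for Polr1a (188.3 normalized reads, the others 225.5 to 232.5), Nop2 (303.3, the others 363 to 367.6) and Rcl1 (146.5, the others 211.5 to 224.4). Replicate 1 of the same group was high for Ftsj3 (516.6, the others 462.4 to 467.4), and replicate 2 of 1% CO2 at 4 h was high for Wdr43 (318.6, the others 274.1 to 277.4).

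The change from 2 h to 4 h differed between 1% CO2 and NaOH for 6 of the 54 genes by the interaction test of edgeR. Of these, 2 had a more positive log2 fold change in 1% CO2, compared with 7.94% of all genes, and 4 with NaOH, compared with 7.11%. The counts are thus not above the shares of all genes by much or at all, and the 6 are described as single genes. The difference of the log2 fold changes, 1% CO2 minus NaOH, was 1.405 for Nolc1 and 0.5021 for Gnl3. It was -0.4351 for Nop2, -0.7704 for Grwd1, -0.6745 for Rcl1 and -0.9453 for Ddx10. The cause was not tested.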

How the results depend on the processing

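Single genes were followed over all alternatives for the 22 looked at one by one and not for all 54. Most of the 22 were chosen for a small p or an extreme change, so the tally does not stand for the whole list. Of their values, 3027 kept their side of the threshold, 91 no longer passed and 28 passed in the alternative only. None of those that passed in either fit reversed, and a change of sign where neither fit passed is counted among the 3027. With scaling by library size alone, 1 gene was lower at 2 h of NaOH (0 in the main analysis), 7 were higher and 6 lower in 1% CO2 than with NaOH at 2 h (4 and 15), 15 were lower at 4 h (23), and 1 passed the interaction with a more positive log2 fold change in 1% CO2 (2). Against 0 h, 39 and 45 genes were then higher at 2 h and 4 h of 1% CO2 (42 and 47), and 35 and 48 with NaOH (44 and 51). The median log2 fold change at 2 h of NaOH was 0.43 (0.62), where that of all genes was -0.21. Leaving out 1 library at a time gave 39 to 42 and 46 to 47 higher genes at 2 h and 4 h of 1% CO2, and 41 to 45 and 48 to 52 with NaOH, with 0 to 1 lower at 2 h. Between 2 h and 4 h, 18 to 22 rose in 1% CO2, and with NaOH 29 to 32 rose and 1 to 4 fell. Between treatments, 2 to 4 were higher and 10 to 16 lower in 1% CO2 at 2 h, and 17 to 22 were lower at 4 h. The interaction gave 1 to 2 and 4 to 7 genes. The cause was not tested.

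Replicate numbers did not pair the libraries: of 40 pairs with the same number, 2 had a correlation of deviations over 0.1 (range -0.21 to 0.168). With the replicate block, 41, 47, 44 and 51 genes were higher against 0 h, 20 and 34 rose between the times, and against NaOH 3 genes lay above and 15 below in 1% CO2 at 2 h, and 2 above and 22 below at 4 h. Genes at low counts, such as Ncl and Nip7, limit what can be read from single values.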

Other observations

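Myc, a transcription factor known to act on many ribosome biogenesis genes, ranged from 173.7 to 199.5 normalized reads at 0 h, 389.5 to 474.6 and 344.4 to 379 at 2 h and 4 h of 1% CO2, and 424.4 to 483.5 and 257.2 to 311.5 at 2 h and 4 h of NaOH. All treated libraries lay above those of 0 h, and with NaOH Myc was lower at 4 h than at 2 h (log2 fold change -0.73, adjusted p = 3.28e-08 in edgeR). Max, its partner, had a log2 fold change of 0.57 and 0.55 at 2 h and 4 h of 1% CO2, and 0.70 and 0.99 with NaOH. Other genes listed with Myc and Max did not all go up. Mnt had a mean of 160.1 normalized reads at 0 h, 140.9 and 170.3 in 1% CO2, and 67.9 and 216.5 with NaOH. Mxd4 had 384.8 at 0 h, 307.7 and 300.8 in 1% CO2, and 331.9 and 289.7 with NaOH, and Mlx went up in each treated group. Whether MYC takes part in the rise of the 54 genes was not tested.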
